A study of Homo sapiens with 6 samples.

Results

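Expression of 31 genes of cholesterol and fatty acid synthesis was examined in the human embryonic stem cell line H1 at day 2 of hematopoietic differentiation. The genes were taken by symbol from a fixed list of 18 sterol enzymes, 7 fatty acid enzymes and 6 regulators, and all 31 were found among the 37803 gene symbols listed once in both deposited tables. All 31 also had an average FPKM (fragments scaled to transcript length and to the mapped total) of at least 1 and so were tested, with 13909 genes tested in all. RNA-seq was performed on wild-type H1 cells (WT, n = 2) and on H1 cells with SNAI1 deletion, whose labels form a pair of groups, SNAI1_KO_1 and SNAI1_KO_2 (n = 2 each). Every group was grown in Custom mTeSR1 with 40 ng/ml activin A and 50 ng/ml BMP4 per the labels, whereas the methods of the study assign these doses the other way round. The study made 2 knockout lines for each gene it deleted, carrying frameshift mutations, and the labels do not say whether SNAI1_KO_1 and SNAI1_KO_2 are those lines or whether the replicates were separate cultures. P-values therefore measure the spread between these libraries, which may be technical.

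Cells build cholesterol from acetyl-CoA through mevalonate, farnesyl diphosphate, squalene and lanosterol, and they build fatty acids from the same precursor through malonyl-CoA. Both branches are switched on by SREBP transcription factors. When membrane sterol is low, SCAP escorts SREBP from the endoplasmic reticulum to the Golgi for cleavage, and the INSIG proteins hold SCAP back when sterol is plentiful. SNAI1 is a zinc-finger repressor that binds E-boxes and drives the transition from epithelial to mesenchymal cells as mesoderm forms.

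Each table held 1 library of every group and was normalised on its own, so knockout and WT libraries were compared within a table. FPKM summed to 603399 to 633851 per library and absolute depth is unknown. Mitochondrial genes took 8.77% to 9.46% of FPKM in one table and 5.20% to 5.52% in the other. SNAI1 mRNA was 37.1 and 36.4 FPKM in WT (first and second table), 51.6 and 47.8 in SNAI1_KO_1 and 68.6 and 55.0 in SNAI1_KO_2, so it was not lower in the libraries labelled as knockouts. A frameshift need not remove the transcript, so this level is no check of the labels. Epithelial markers summed to 801 and 893 FPKM in WT and to 2472 to 2767 in the knockout libraries, with 7 of 7 called higher. Of 8 mesoderm markers 6 were called lower and 1 higher, and they summed to 1599 and 1671 FPKM in WT against 1091 to 1172 in the knockout libraries. The mesoderm marker called higher was T, at 17.8 and 38.7 FPKM in WT and 130 to 251 in the knockout libraries. Pluripotency markers summed to 1125 and 1145 FPKM in WT and 1363 to 1538 in the knockout libraries, with 3 of 7 called higher and 0 lower. POU5F1 carried most of that rise, and the other 6 summed to 640 FPKM in WT against 686 and 682 in the first table, and to 515 against 534 and 523 in the second. Of 8 endoderm markers tested 1 was called higher and 3 lower. CER1, called lower, was by far the most abundant of them, at 3262 and 2550 FPKM in WT and 977 to 1797 in the knockout libraries. The other 7 summed to 252 FPKM in WT against 275 and 249 in the first table, and to 591 against 551 and 461 in the second. SOX17 was the endoderm marker called higher, and TTR was listed at 0 in all 6 libraries. Trophoblast and amnion markers had 2 called higher and 2 lower of 5 tested, and HAND1, called lower, is on this list and the mesoderm list. Of 2 neuroectoderm markers tested, NES was called higher, and OTX2 was below WT in both tables but did not pass. PAX6 averaged under 1 FPKM and was not tested, at 1.29 and 2.38 in WT and 0.0242 to 0.184 in the knockout libraries. LHX2, also untested, was below WT in both tables, ZIC1 went both ways, and SOX1 was listed between 0 and 0.0169 FPKM. The part of these shifts in cell state in the lipid gene differences was not tested. In bulk RNA a change in the share of one cell type and a change in RNA per cell cannot be told apart.

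Sterol enzymes were the class with the most calls. Of the 18, 11 (61.1%) were called higher when both knockout groups were set against WT and 0 were called lower. The contrast called 31.3% of all genes tested, 15.8% higher and 15.4% lower. TM7SF2 and HSD17B7, a pair of reductases that work after lanosterol, had the largest differences, followed by SC5D and DHCR7, which act at the end of the pathway. None of the 7 fatty acid enzymes passed. Of the 6 regulators, STARD4 and INSIG1 were called higher and SCAP lower. Over all 31 genes, 13 were called higher, 1 lower and 17 did not pass. The median log2 difference was 0.25 for sterol enzymes, 0.08 for fatty acid enzymes and 0.19 for regulators, where the median over all genes tested was -0.05. Whether the classes differ from one another was not tested.

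**Figure D1:**
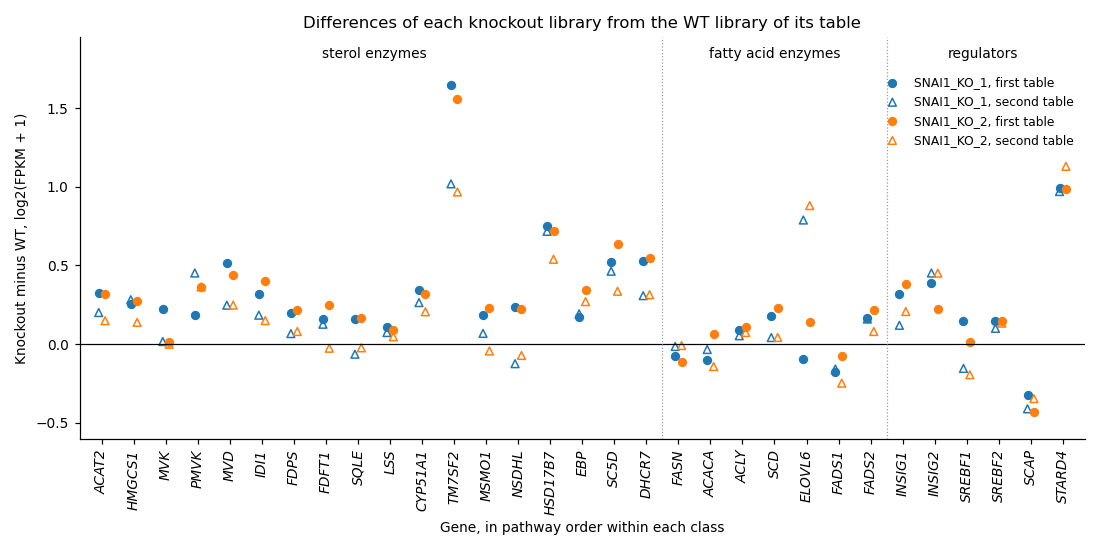
Difference of each knockout library from the WT library of its own table, on the log2(FPKM + 1) scale (vertical axis), for the 31 genes in pathway order within each class (horizontal axis). Filled circles are the first table and open triangles the second, blue SNAI1_KO_1 and orange SNAI1_KO_2. TM7SF2, HSD17B7 and STARD4 stand highest, most other sterol enzymes lie between 0 and 0.64, and SCAP is below 0 in all 4 differences.

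The promoters of the 3 genes whose call held under every alternative setting run, TM7SF2, HSD17B7 and STARD4, are shown with that of SREBF2, the SREBP gene most tied to sterol synthesis. Each is the 250 bases before the RefSeq transcription start, 5′ to 3′ on the strand of the gene, in GRCh38.p14. Capitals mark the motifs searched on both strands: TCACNCCAC (a sterol regulatory element), CCAAT (the NF-Y box, ATTGG on the other strand) and CAGGTG (an E-box bound by SNAI1, CACCTG on the other strand). TM7SF2 lies at chr11:65111622-65111871 (+), HSD17B7 at chr1:162790452-162790701 (+), STARD4 at chr5:111512536-111512785 (-) and SREBF2 at chr22:41832855-41833104 (+).
TM7SF2: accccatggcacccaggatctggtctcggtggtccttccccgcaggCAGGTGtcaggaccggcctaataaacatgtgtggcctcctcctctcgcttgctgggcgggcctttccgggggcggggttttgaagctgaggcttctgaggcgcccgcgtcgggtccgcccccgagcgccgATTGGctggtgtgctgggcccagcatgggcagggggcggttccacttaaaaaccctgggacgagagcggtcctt
HSD17B7: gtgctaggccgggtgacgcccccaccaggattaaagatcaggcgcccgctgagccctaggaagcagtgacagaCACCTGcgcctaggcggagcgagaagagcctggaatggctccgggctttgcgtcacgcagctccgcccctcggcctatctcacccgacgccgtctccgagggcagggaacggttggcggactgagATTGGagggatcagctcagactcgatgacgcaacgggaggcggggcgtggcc
STARD4: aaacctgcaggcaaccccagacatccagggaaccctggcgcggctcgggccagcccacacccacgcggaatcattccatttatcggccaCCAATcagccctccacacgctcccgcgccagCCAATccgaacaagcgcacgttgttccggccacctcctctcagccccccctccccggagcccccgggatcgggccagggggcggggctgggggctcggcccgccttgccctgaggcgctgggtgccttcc
SREBF2: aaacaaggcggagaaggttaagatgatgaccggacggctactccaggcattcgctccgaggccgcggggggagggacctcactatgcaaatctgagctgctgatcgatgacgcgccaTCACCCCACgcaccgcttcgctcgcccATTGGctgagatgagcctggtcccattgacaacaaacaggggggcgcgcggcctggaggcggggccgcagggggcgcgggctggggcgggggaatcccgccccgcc

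The TM7SF2 window held CAGGTG starting 204 bases before the start and an NF-Y box at 74. The HSD17B7 window held the E-box on the reverse strand at 177 and an NF-Y box at 52. STARD4 had a pair of NF-Y boxes, at 161 and 130, and neither of the other motifs. The sterol regulatory element searched was found in 1 of the 27 genes that had a promoter entry, SREBF2, at 133 bases before the start with an NF-Y box at 106. ACAT2, FDFT1, SQLE and FASN had no entry. NF-Y boxes were found in 13 of 15 sterol enzyme genes, 3 of 6 fatty acid enzyme genes and 3 of 6 regulator genes, and 37.0% of the 27305 genes in the promoter table have one. The E-box was found in 5 of 15 sterol enzyme genes (CYP51A1, TM7SF2, HSD17B7, EBP and SC5D), in 1 of 6 fatty acid enzyme genes (ACACA) and in 0 of 6 regulator genes, where 20.6% of all genes have one. By window, 32.0% of the 35116 windows hold an NF-Y box, 17.5% the E-box and 0.883% the sterol regulatory element. Of the 12 genes with an entry that were called higher, 5 had the E-box and 10 an NF-Y box. Of the 14 not called, 1 had the E-box and 9 an NF-Y box. Those 5 are the sterol enzymes named above, so call and class cannot be told apart here. The share with each motif among all genes called higher was not computed, and no motif was tested against the calls. A gene with several windows was counted when any of them held the motif. For 25 of the 37 windows the bases after the start were found in a GENCODE transcript of the gene. The CYP51A1 window, which holds 1 of the E-boxes counted, was not among these. A match is a description of the letters and not of binding.

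The early steps make mevalonate. ACAT2, the cytosolic acetoacetyl-CoA thiolase, ranged from 134 to 138 FPKM in WT and from 148 to 173 in the knockout libraries, and its log2 difference was 0.25 (adjusted p = 0.0199 by limma). Its exons overlap TCP1 and SOD2 on the other strand, and whether the counting used strand is not stated, so its values are uncertain. HMGCS1, the HMG-CoA synthase that acts after ACAT2, was 202 and 162 FPKM in WT (first and second table), 242 and 198 in SNAI1_KO_1 and 245 and 179 in SNAI1_KO_2. The knockout libraries were above the WT library of their own table in both tables, although the groups overlapped across tables. The HMGCS1 difference was 0.24 ± 0.050 (SE) with an adjusted p of 0.0204.

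The next enzymes turn mevalonate into the isoprenoid units. MVK, the mevalonate kinase, did not pass, with a log2 difference of 0.06 and a 95% interval of -0.12 to 0.24. Its exons overlap MMAB on the other strand. PMVK, the phosphomevalonate kinase, was 11.4 and 8.70 FPKM in WT, against 13.1 and 12.3 in SNAI1_KO_1 and 15.0 and 11.5 in SNAI1_KO_2. Its knockout libraries did not overlap WT, but the lowest of them, in the second table, was barely above the WT library of the first. Its difference was 0.34 ± 0.093 with an adjusted p of 0.0438. MVD, the diphosphomevalonate decarboxylase, was 104 and 189 FPKM in WT, against 150 and 224 in SNAI1_KO_1 and 142 and 224 in SNAI1_KO_2. The tables differed more for MVD than the groups did, and within each table both knockout libraries were above WT, with a difference of 0.36 ± 0.065 and an adjusted p of 0.0125. IDI1, the isomerase of the isoprenoid units, had a difference of 0.26 and an adjusted p of 0.0324.

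Between the isoprenoid units and lanosterol the differences were small. FDPS (farnesyl diphosphate synthase), FDFT1 (squalene synthase), SQLE (squalene epoxidase) and LSS (lanosterol synthase) had log2 differences of 0.14, 0.13, 0.06 and 0.08 and none passed (adjusted p 0.0728, 0.210, 0.528 and 0.210 by limma). FDPS was the nearest to the threshold and was higher than WT in all 4 within-table differences. Its antisense neighbour RUSC1-AS1 was listed at 5.14 and 5.76 FPKM in WT. SQLE, which with its oxygen-dependent step is a known control point of the pathway, had a 95% interval of -0.10 to 0.22. It was higher than WT in the first table (ratios 1.12 and 1.12) and lower in the second (0.956 and 0.984).

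The enzymes after lanosterol held the largest differences. CYP51A1, the lanosterol demethylase, had a difference of 0.28 (adjusted p = 0.0155 by limma). GENCODE lists a further gene model, AC000120.2, sharing 2844 exon bases with it on the same strand, so its values are uncertain. TM7SF2, the sterol reductase that acts on the product of CYP51A1, was 22.0 and 41.9 FPKM in WT, against 71.2 and 85.9 in SNAI1_KO_1 and 66.9 and 82.8 in SNAI1_KO_2. All 4 knockout libraries were above both WT libraries. Its exons share 16 bases with VPS51 on the same strand. The ratio to WT was 3.23 and 3.04 in the first table, 2.05 and 1.98 in the second, and the difference was 1.30 ± 0.14 with an adjusted p of 0.00267.

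MSMO1, NSDHL and HSD17B7 together remove methyl groups from the sterol ring. MSMO1 and NSDHL did not pass, with differences of 0.11 (95% interval -0.06 to 0.28) and 0.07 (-0.16 to 0.29). NSDHL was higher than WT in the first table and lower in the second. HSD17B7, the keto reductase of this step, was 18.9 and 20.6 FPKM in WT, against 32.6 and 34.5 in SNAI1_KO_1 and 31.9 and 30.4 in SNAI1_KO_2. Its WT libraries were close to each other across tables and the groups did not overlap. The difference was 0.68 ± 0.068 with an adjusted p of 0.00204. Its pseudogenes HSD17B7P1 and HSD17B7P2 were listed at no more than 0.0370 FPKM in any library.

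The last steps shift and reduce the double bonds of the ring. EBP, the sterol isomerase, had a difference of 0.24 and an adjusted p of 0.0154, and its groups did not overlap. SC5D, the sterol desaturase, was 64.3 and 74.9 FPKM in WT, against 92.9 and 104 in SNAI1_KO_1 and 100.4 and 94.8 in SNAI1_KO_2, again without overlap. Its difference was 0.49 ± 0.074 with an adjusted p of 0.00747. DHCR7, which makes cholesterol from dehydrocholesterol, was 109 and 164 FPKM in WT, against 158 and 204 in SNAI1_KO_1 and 160 and 204 in SNAI1_KO_2. The second WT library was above the knockout libraries of the first table, so the groups overlapped across tables, while within each table both knockout libraries were higher. The DHCR7 difference was 0.42 ± 0.063 with an adjusted p of 0.00713.

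**Figure D2:**
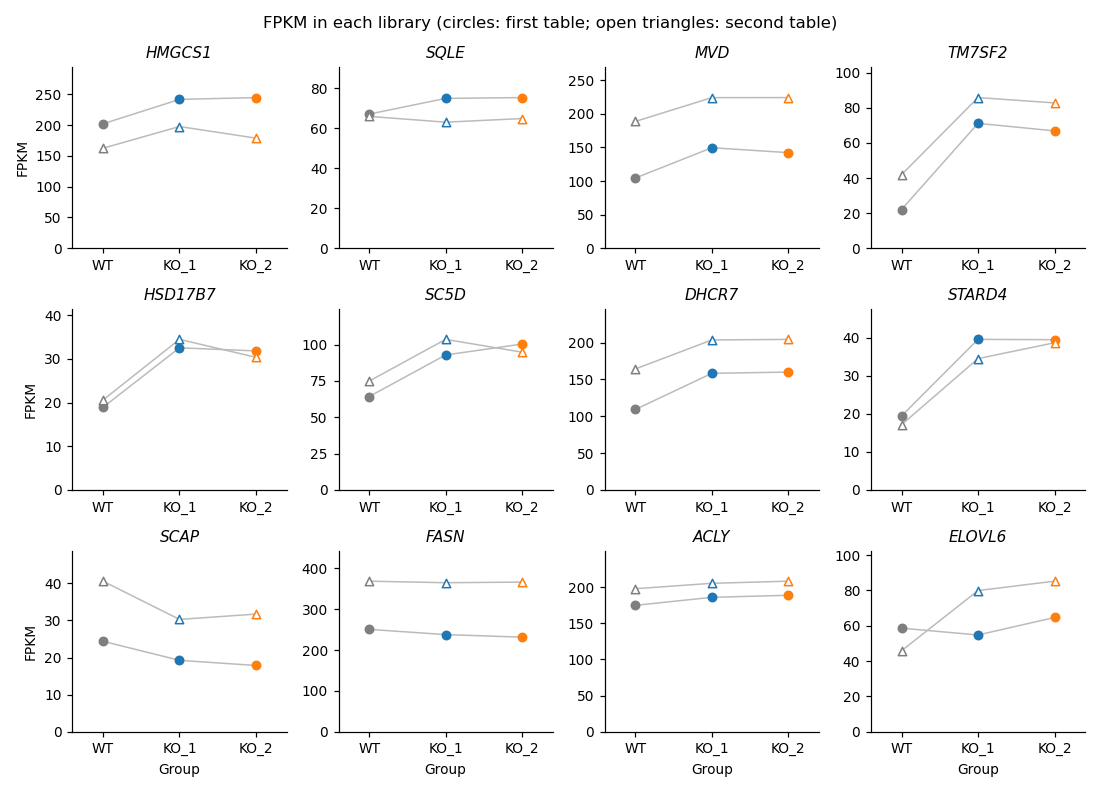
FPKM (vertical axis, from 0) in each library of WT, SNAI1_KO_1 and SNAI1_KO_2 for 12 of the 31 genes. Filled circles are the first table and open triangles the second, and grey lines join libraries of 1 table. TM7SF2, HSD17B7, SC5D and STARD4 show no overlap between knockout and WT libraries, whereas MVD, DHCR7 and SCAP differ between tables as well as between groups.

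All 18 sterol enzymes had a positive difference, from 0.06 to 1.30 on the log2 scale, and 13 were higher than WT in all 4 within-table differences. Both differences of a table use the same WT library, so the 4 are not independent. The shares over all genes tested were not computed for these counts. For 8 of the 18 the knockout and WT libraries did not overlap in FPKM, as for 34.0% of all genes tested. Summed over the class, FPKM was 1672 and 1894 in WT, 2079 and 2188 in SNAI1_KO_1 and 2117 and 2116 in SNAI1_KO_2, or 1.24 and 1.27 times WT in the first table, and 1.16 and 1.12 times WT in the second. For 17 of the 18 enzymes the mean ratio was larger in the first table than in the second, a count also without a share over all genes. The number called rested on single libraries. It fell from 11 when any 1 library was left out, and the number over all genes tested fell as well. The fall was largest without the first table's WT library and smallest without the second table's SNAI1_KO_2 library. Each such fit leaves 1 library in a group. Without the table term in the model 2 were called, TM7SF2 and HSD17B7.

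None of the fatty acid enzymes passed the threshold (0 of 7 by limma, 2 at an unadjusted p under 0.05). ACLY, which supplies cytosolic acetyl-CoA to both branches, was 175 and 198 FPKM in WT, against 186 and 205 in SNAI1_KO_1 and 189 and 208 in SNAI1_KO_2. Each knockout library was slightly above the WT library of its table, with a difference of 0.08 and a 95% interval of -0.02 to 0.18. ACACA, the carboxylase that makes malonyl-CoA, had a difference of -0.05 (-0.24 to 0.13). FASN, the fatty acid synthase, was 251 and 369 FPKM in WT, against 238 and 365 in SNAI1_KO_1 and 232 and 366 in SNAI1_KO_2. FASN was below WT in all 4 differences, by little, and its interval ran from -0.16 to 0.05 around -0.05.

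The enzymes that lengthen and desaturate fatty acids varied more. SCD, the stearoyl-CoA desaturase, had a difference of 0.12 (adjusted p = 0.130 by limma). ELOVL6, the elongase of palmitate, is described because its tables disagreed, a choice made after its values were seen. In one table WT held 58.7 FPKM, SNAI1_KO_1 54.8 and SNAI1_KO_2 64.7. In the other the values were, in that order, 45.9, 79.9 and 85.3. The ratios to WT were thus 0.934 and 1.10 in one table and 1.74 and 1.86 in the other, and the difference of 0.43 did not pass (adjusted p = 0.138). With the first table's WT library left out it passed, at 0.83 with an adjusted p of 0.0145. FADS1 and FADS2, neighbouring desaturases of polyunsaturated fatty acids, had differences of -0.16 and 0.16 (adjusted p 0.0898 and 0.0533). Their exons overlap on opposite strands and their values are uncertain for that reason. FADS1 was below and FADS2 above WT in all 4 differences. Summed over the 7 enzymes, FPKM was 1.04 to 1.07 times WT in the 4 comparisons.

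**Figure D3:**
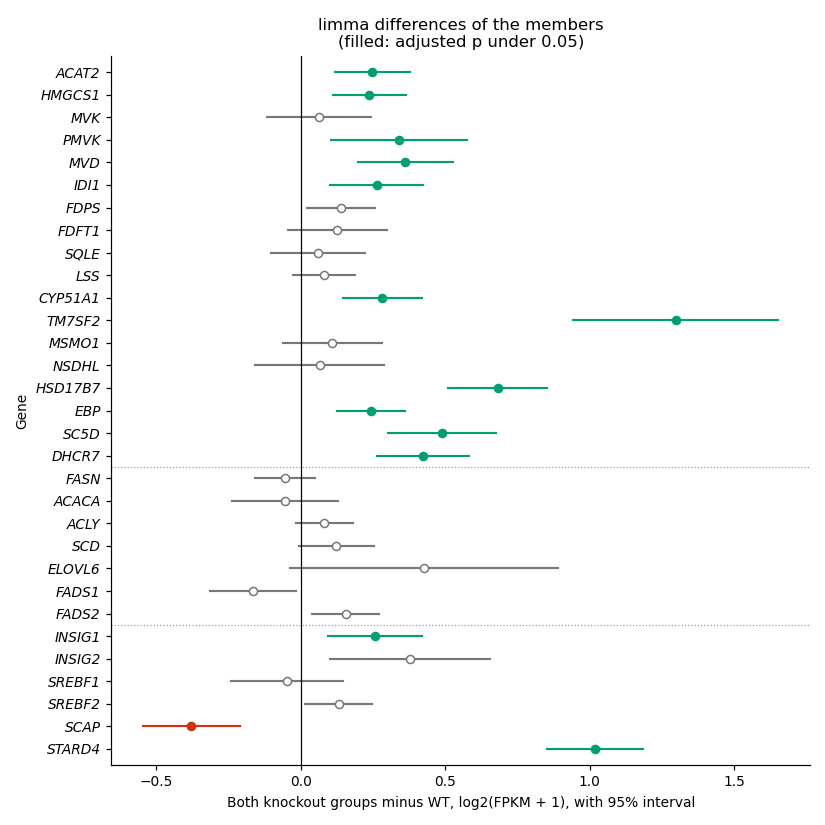
Difference of both knockout groups against WT on the log2(FPKM + 1) scale (horizontal axis) with its 95% interval from limma, not adjusted for the number of genes, for the 31 genes (vertical axis, classes divided by dotted lines). Filled green points were called higher, the filled red point lower, and open grey points did not pass. The called genes are 11 sterol enzymes, INSIG1 and STARD4 above 0, and SCAP below 0.

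Among the regulators, the sterol carrier and the SREBP escort were called in opposite directions. STARD4, a soluble protein that carries cholesterol between membranes and is itself an SREBP target, was 19.4 and 17.1 FPKM in WT, against 39.6 and 34.5 in SNAI1_KO_1 and 39.5 and 38.7 in SNAI1_KO_2. Every knockout library was 2.01 to 2.26 times the WT library of its table, and the groups did not overlap. The difference was 1.02 ± 0.066 with an adjusted p of 0.000589, the smallest of the 31 genes. SCAP was 24.4 and 40.6 FPKM in WT, against 19.2 and 30.3 in SNAI1_KO_1 and 17.9 and 31.7 in SNAI1_KO_2. It was lower than WT within each table, with ratios of 0.732 to 0.789, although the groups overlapped across tables, and the difference was -0.38 ± 0.066 with an adjusted p of 0.0117. SCAP did not pass when either WT library was left out or without the table term.

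INSIG1, which retains SCAP and is also an SREBP target, was 37.2 and 51.0 FPKM in WT, against 46.6 and 55.5 in SNAI1_KO_1 and 48.8 and 59.0 in SNAI1_KO_2. It was above WT within each table and overlapped across them, with a difference of 0.26 ± 0.065 and an adjusted p of 0.0348. It did not pass when any 1 library was left out. INSIG2, its paralogue, had a larger difference of 0.38 at a lower level, with a mean of 3.98 FPKM, and did not pass (adjusted p = 0.0524). SREBF2 had a difference of 0.13 (adjusted p = 0.0865) and was above WT in all 4 differences. SREBF1, the SREBP gene most tied to fatty acid synthesis, had a difference of -0.05 with a 95% interval of -0.24 to 0.15. Its exons overlap RAI1 on the other strand.

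To ask whether the libraries of each labelled knockout group gave the same picture, each group was set against WT. Both contrasts use the same WT libraries and are given side by side only. In SNAI1_KO_1, 9 of the 31 genes were called higher and 1 lower, where 13.0% and 10.9% of all genes tested were called. In SNAI1_KO_2, 11 were called higher and 1 lower, where 13.5% and 12.0% of all genes were. Sterol enzymes made up 8 of the 9 and 9 of the 11. In each contrast fewer of the 31 genes were called when 1 library of that knockout group or of WT was left out. Such a fit leaves 1 library in a group, and the share over all genes in it is not given. TM7SF2 differed from WT by 1.33 in SNAI1_KO_1 and 1.26 in SNAI1_KO_2, and STARD4 by 0.98 and 1.06. Set against each other by limma, the knockout groups had 0 of 31 genes called and 0 at an unadjusted p under 0.05, with differences from -0.11 to 0.16. Over all genes tested 0.00% were called in that contrast and 521 genes had an unadjusted p under 0.05. For TM7SF2 the 95% interval of the difference between the knockout groups was -0.48 to 0.34.

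Other lipid genes were examined in lists drawn up by function. Over all genes tested 15.8% were called higher and 15.4% lower, and whether a list differs from these shares was not tested. Of 12 other sterol and isoprenoid genes tested, 3 were called higher and 1 lower, with a median log2 difference of 0.10. COQ2, of ubiquinone synthesis, was higher by 0.60 (adjusted p = 0.00680 by limma), and CYB5R3, a reductase that supplies electrons to lipid desaturation, had a difference of -0.27 and was called lower. Of 12 other genes of SREBP processing and feedback, 2 were called higher (PAQR3 at 0.72, a Golgi protein that binds SCAP, and TMEM97 at 0.34) and 1 lower (MBTPS1, a protease that cleaves SREBP, at -0.23), with a median of -0.01.

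Of 12 genes of sterol uptake, transport and efflux tested, 3 were called higher and 3 lower, with a median of -0.04. That is 25% in each direction, where 15.8% and 15.4% of all genes tested were called higher and lower. LIPA, the lysosomal acid lipase, had a difference of 0.57 and NPC1, the lysosomal cholesterol exporter, 0.50, whereas GRAMD1B, a sterol transporter at membrane contact sites, had -0.61. Of 19 other genes of fatty acid synthesis, elongation and desaturation, 6 were called higher and 2 lower, with a median of 0.09. SCD5, a further stearoyl-CoA desaturase, was 0.342 and 0.751 FPKM in WT, against 3.21 and 4.96 in SNAI1_KO_1 and 3.33 and 5.37 in SNAI1_KO_2, a difference of 1.74 at a level far below that of SCD. FADS3 and ME1, the malic enzyme that supplies NADPH, were higher by 1.18 and 0.99. Of 10 genes of fatty acid activation and glycerolipid synthesis, 0 were called higher and 2 lower (DGAT1 at -0.49 and ACSL3 at -0.25), and of 17 genes of fatty acid oxidation 1 was called higher (CPT1A, the mitochondrial entry step, at 0.59) and 4 lower, among them SLC25A20 at -0.58 and ETFB at -0.33.

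**Figure D4:**
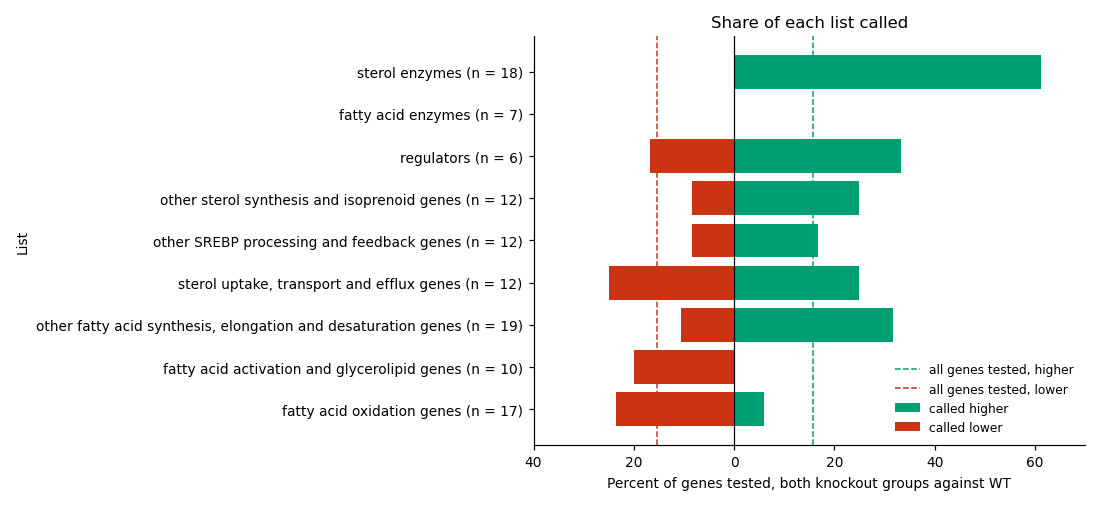
Percent of the genes tested in each list (vertical axis) that were called higher (green, to the right of 0) or lower (red, to the left) for both knockout groups against WT, with dashed lines at the 15.8% and 15.4% of all genes tested. Sterol enzymes reach 61.1% higher and 0% lower and fatty acid enzymes have no call in either direction.

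The mean FPKM of the sterol enzymes ranged from 12.0 (PMVK) to 276 (FDPS), and among the 9477 genes tested with a mean FPKM of at least 5, 16.7% were called higher. Under every alternative setting run, TM7SF2, HSD17B7 and STARD4 passed the threshold, with adjusted p of at most 0.0499, 0.0317 and 0.0172 by limma. Each of the other 11 called genes failed to pass under at least 1 of them.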

How the data were processed

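RNA-seq libraries of differentiating H1 cells (day 2) were made with the Illumina TruSeq kit from 2 ug of total RNA each. The authors deposited FPKM values per gene symbol in 2 tables, and only the second names the unit. The submitters' processing notes list BWA, Bowtie, RSEM and hg19 without versions or roles. Strand use in counting is not given in the sources used here. Per-sample columns left unused numbered 0.

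Symbols listed once in both tables (37803) whose FPKM averaged 1 or more across the 6 libraries (13909 genes) entered a fit on log2(FPKM + 1), a scale that understates changes of low values. limma (version 3.58.1, R version 4.3.3) fitted a mean per group and a term for the table, with eBayes and a mean-variance trend (3.34 prior and 2 residual degrees of freedom). Two-sided p-values were adjusted by Benjamini-Hochberg across every gene tested, and 0.05 was the threshold. The fit was also run on simulated data in which genes varied independently, so that run cannot check the calls made here. Libraries are paired by the table they share: deviations of the groups between tables correlated at 0.616, 0.666 and 0.676 over genes, and genes are not independent of one another.

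The members, gene lists and tests were chosen with earlier results of these data known, so no p is given for a list. Values of every library are given for the called members with the largest differences in each class (up to 6 sterol enzymes, 4 fatty acid enzymes and 4 regulators), for HMGCS1, ACLY and FASN, and for any member called against its class. Up to 3 genes are named per other list, the called genes with the largest differences, of which 1 is not reported here. The columns carry no replicate number, and absolute depth is unknown, so no counting interval is given. Count-based tests were not run on FPKM. Exon overlaps come from GENCODE release 29 and promoters from RefSeq (GRCh38.p14), matched by symbol. Alternatives were no table term, pseudocounts of 0.1 and 10, quantile normalization, no filter or a stricter one (mean FPKM 5 or more), scaling by median ratios, a flat variance prior without the trend, only the groups of a contrast, and leaving out each library.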

Additional observations from a re-analysis of the deposited data

How the results depend on the processing

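Most calls depended on the pairing by table. Without the replicate block, 2 sterol enzymes were called instead of 11, 1 regulator instead of 3, 1 gene instead of 10 for SNAI1_KO_1, 1 instead of 12 for SNAI1_KO_2 and 1065 of all genes instead of 4348. Without the filter on low values, the counts were 3 sterol enzymes, 2 genes for each knockout group and 2139 of all genes. Without the mean-variance trend they were 6 sterol enzymes, 5 genes for SNAI1_KO_1 and 6 for SNAI1_KO_2. Fatty acid enzymes rose from 0 to 1 called at a mean FPKM of at least 5, under median-ratio scaling and with only the groups of the contrast. The median of the regulators was 0.12 with a pseudocount of 10 and 0.13 at a mean FPKM of at least 5.

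Leaving out 1 library at a time, sterol enzymes called ran from 3 to 10, fatty acid enzymes from 0 to 1, regulators from 1 to 2, genes called for SNAI1_KO_1 from 2 to 7 and for SNAI1_KO_2 from 1 to 8, and all genes from 1728 to 2840. The median ran from 0.19 to 0.28 for sterol enzymes, 0.02 to 0.09 for fatty acid enzymes and 0.14 to 0.23 for regulators. SQLE ran from -0.044 to 0.16 and NSDHL from -0.098 to 0.23, both lowest without the first table's WT library. ACACA ran from -0.11 to 0.0068, above 0 without the second table's SNAI1_KO_2 library. SREBF1 ran from -0.17 to 0.080, and was above 0 without the second table's WT library and, at 0.0012, without its SNAI1_KO_1 library. None of these 4 genes had passed. A lone library was assumed to vary like the others.

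Of 464 alternatives of single genes, 384 kept both direction and call, 66 were weaker (39 on leaving out a library), 9 stronger and 5 reversed. The contrast between the knockout groups called 0 of the 31 genes under every alternative run. Causes of these changes were not tested, and some of the settings also bring fewer samples or more genes tested. Depth is unknown, so the counting error of low values cannot be given.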
